A study of Rattus norvegicus with 4 samples.

Results

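The genes described here are those of the cyclic GMP (cGMP) pathway of vascular smooth muscle: the natriuretic peptide receptors Npr1, Npr2 and Npr3, the soluble guanylate cyclase subunits Gucy1a1 and Gucy1b1, the cGMP-dependent protein kinases (G kinases) Prkg1 and Prkg2, and Irag1, the G kinase partner at the internal calcium store. A probe set, the group of array probes that reads 1 transcript, was taken when the platform annotation gave it exactly 1 gene symbol and that symbol was among these 8 genes. This gave 9 of the 31099 probe sets on the array, and they covered 7 of the 8 genes. Prkg1 had no probe set under this rule and was not analysed here.

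RNA came from cultured smooth muscle cells of the aorta of Sprague-Dawley rats. The cells of one group were given IL-1b (interleukin-1 beta, a cytokine that drives inflammation) at 2.5 ng/mL, and those of the other were given the vehicle, 0.1% bovine serum albumin, with 2 arrays in each group and an exposure of 24 hours. Cells of both groups had first grown with 10% serum for 5 days and then gone without serum for 3 days. Since nothing in the labels tells whether the replicates of a group were cultured separately, the p-values cover the spread between these samples alone, and that spread may be technical. Values are linear MAS5 intensities, scaled so that every array has the same trimmed mean.

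As background, cGMP relaxes vascular smooth muscle and restrains its growth. It is made by membrane receptors with a guanylate cyclase domain, which natriuretic peptides switch on, and by the soluble guanylate cyclase, a heterodimer whose haem group senses nitric oxide. G kinase carries much of the signal, acting on calcium release, on myosin phosphatase and on potassium channels, and phosphodiesterases end it by breaking cGMP down.

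One array, IL-1b replicate 1, was unlike the rest. The bacterial transcripts spiked in as hybridisation controls read 3.53 times their vehicle mean there, against 0.957 times on IL-1b replicate 2. Background was set on each array from 26 bacterial control probe sets that read dim throughout, and was 60.8 and 18.8 on IL-1b replicates 1 and 2, against 29.4 and 19.6 on vehicle replicates 1 and 2. Over all 18625 probe sets bright enough to be tested, 1325 passed an adjusted p of 0.05 (limma with Benjamini-Hochberg adjustment) as lower with IL-1b and 1178 as higher. With each array centred on its median log2 value the median difference of all tested probe sets was -0.19 (log2), and 65.6% of calls were then lower, against 52.9% with the values as deposited.

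Among the 9 probe sets, 6 were bright enough to be tested, for Npr1, Npr2, Npr3, Gucy1b1 (2 probe sets) and Irag1, and the other 3, for Gucy1a1 and Prkg2, were not. With IL-1b the natriuretic peptide clearance receptor Npr3 fell by 4.90 (log2), with 1 of its 2 IL-1b values below background, and the G kinase partner Irag1 fell by 1.66. Npr1 and both Gucy1b1 probe sets had lower values on both IL-1b arrays than on either vehicle array but did not pass the threshold, and Npr2 had overlapping values. Thus 2 of 6 tested probe sets passed as lower and 0 as higher, where 7.11% of all tested probe sets passed as lower and 6.32% as higher, 13.4% in all. At an unadjusted p under 0.05, 0 of the 6 were higher and 5 were lower. The share of all tested probe sets at that unadjusted cut-off was not computed, so nothing is read from this count. In 5 of the 6 both IL-1b arrays lay below both vehicle arrays, which held for 29.1% of all tested probe sets. Npr3 was bright enough to be tested only through its vehicle arrays, so these counts describe the genes and support nothing about them as a group. The median log2 fold change of the 6 probe sets was -1.10, beside 0.02 over all tested probe sets. In bulk RNA fewer cells that express a gene and less RNA per cell cannot be told apart.

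**Figure D1:**
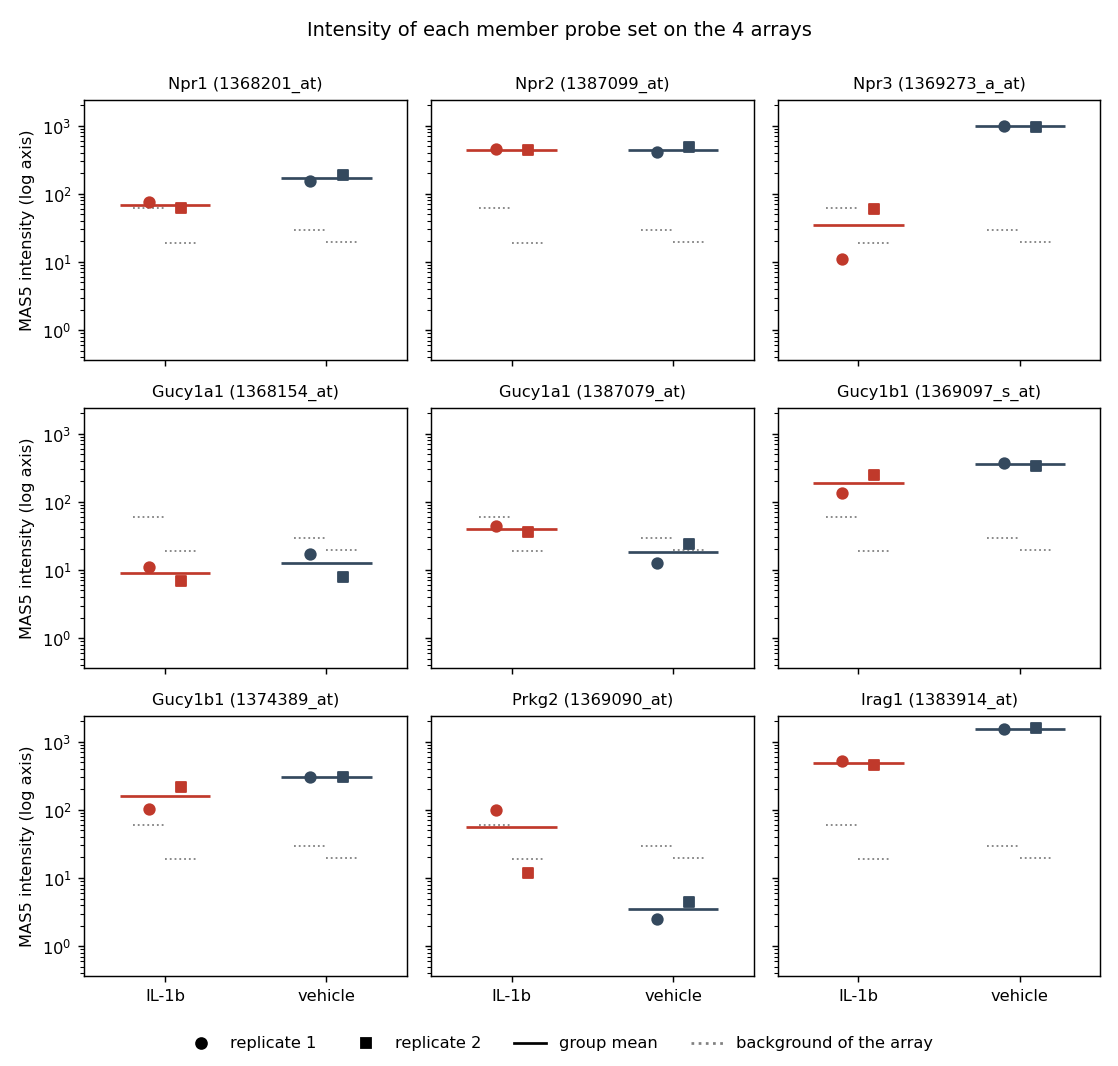
MAS5 intensity (log axis) of each of the 9 probe sets on the 2 IL-1b arrays (red) and the 2 vehicle arrays (dark blue), with the group mean as a bar and each array's background as a dotted line. Npr3 lies at 11.1 and 58.7 with IL-1b, against 994 and 946 with vehicle, whereas the Npr2 groups overlap and the Gucy1a1 and Prkg2 values lie below or not far above background.

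The clearance receptor Npr3 binds natriuretic peptides and removes them from the circulation and has no guanylate cyclase domain. Its probe set (1369273_a_at) read 11.1 and 58.7 on IL-1b replicates 1 and 2, against 994 and 946 on vehicle replicates 1 and 2. Both IL-1b arrays lay far below both vehicle arrays. The mean was 34.9 ± 33.6 with IL-1b and 970.0 ± 34.1 with vehicle (SD, n = 2 each). On the log2 scale used for testing, with 5.49 intensity units added to every value, the fold change was -4.90 ± 0.57 (SE), with a 95% interval of -6.26 to -3.54 and an adjusted p of 0.0021. The value on IL-1b replicate 1 was below that array's background. Set against the higher of its own value and background, the vehicle mean was at least 16.0 times IL-1b replicate 1 and 16.5 times IL-1b replicate 2. The log2 fold change of -4.90 takes the value below background as read. Without IL-1b replicate 1, on arrays that were all above background for Npr3, it was -3.93, and Npr3 ranked 22 from the lowest of 9975 genes, each at its brightest probe set. Without IL-1b replicate 2 the 1 IL-1b value left is below background and allows the bound alone.

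Npr1, the guanylate cyclase receptor for atrial and B-type natriuretic peptides, read 75.4 and 62.1 on IL-1b replicates 1 and 2, against 153 and 186 on vehicle replicates 1 and 2 (probe set 1368201_at). The groups did not overlap and every array was above background, although IL-1b replicate 1 was only slightly so. The mean was 68.7 ± 9.44 with IL-1b and 169 ± 23.1 with vehicle (SD, n = 2 each). The log2 fold change was -1.24 ± 0.33 (SE), with a 95% interval of -2.01 to -0.47 and an adjusted p of 0.051, just outside the threshold. Npr1 was too dim for the filter at the 60th percentile and passed in 7 of the 12 other alternatives. Among these were the fits without IL-1b replicate 1 (log2 fold change -1.37) and without IL-1b replicate 2 (-1.11). Those fits take their spread from the vehicle arrays alone, so nothing is read from their calls. Npr1 did not pass without the offset, the filter or the intensity trend (limma adjusted p = 0.052, 0.083 and 0.063), nor without vehicle replicate 1 or 2.

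Npr2, the guanylate cyclase receptor for C-type natriuretic peptide, read 454 and 436 on IL-1b replicates 1 and 2, against 408 and 479 on vehicle replicates 1 and 2 (probe set 1387099_at). Both IL-1b values lay between the vehicle values. Its log2 fold change of 0.01 ± 0.17 (SE) had a 95% interval of -0.39 to 0.41 and an adjusted p of 0.98. Differences between the receptors were not tested.

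**Figure D2:**
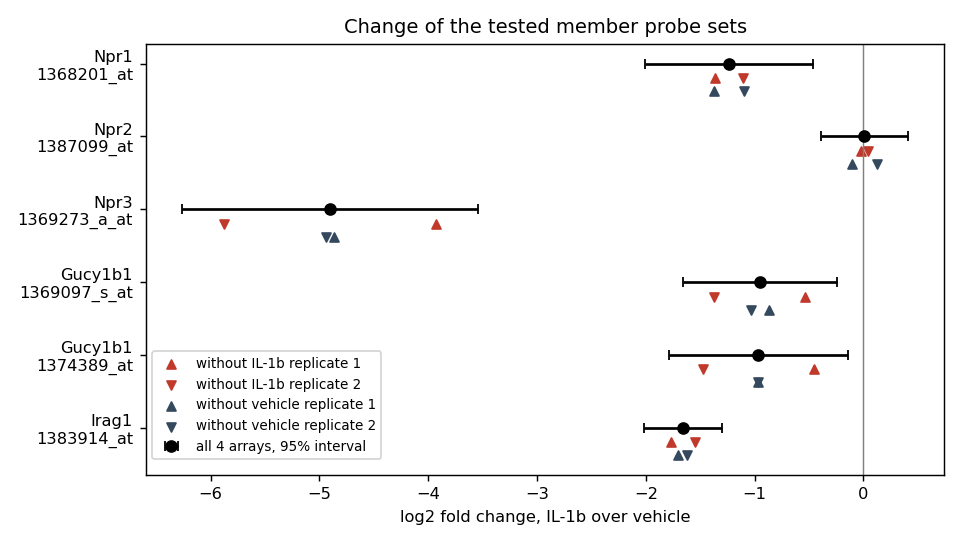
Log2 fold change of IL-1b over vehicle for the 6 tested probe sets, as black points with 95% intervals from limma, and below each the value with 1 array left out (red, an IL-1b array left out; dark blue, a vehicle array left out). Npr3 at -4.90 and Irag1 at -1.66 stay below 0 with any 1 array left out, and Npr2 stays near 0. IL-1b replicate 1 was below background for Npr3, so its lowest point, without IL-1b replicate 2, is no measured fold.

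The promoter windows of Npr3 and Npr1 are shown because they had the lowest log2 fold changes of the 3 receptors. RefSeq sequences of assembly GRCr8 run from 250 bases before to 50 bases after the transcription start and were available for 6 of the 8 genes, in 7 windows. Capitals mark matches, on either strand, to any of 8 motifs: the GC box GGGCGG, the CCAAT box CCAAT, the TATA box TATAAA, the AP-1 motif TGANTCA, the C/EBP motif TTGCNNAA, the STAT motif TTCNNNGAA, the CArG box and the NF-kB motif. Npr3 is at chr2:62658716-62659015 and Npr1 at chr2:178247039-178247338, both on the minus strand.
Npr3: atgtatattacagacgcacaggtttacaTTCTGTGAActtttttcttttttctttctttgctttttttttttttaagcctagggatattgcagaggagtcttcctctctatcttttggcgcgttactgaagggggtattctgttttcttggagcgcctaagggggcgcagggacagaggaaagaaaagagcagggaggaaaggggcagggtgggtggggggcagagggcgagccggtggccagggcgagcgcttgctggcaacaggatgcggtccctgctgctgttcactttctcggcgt
Npr1: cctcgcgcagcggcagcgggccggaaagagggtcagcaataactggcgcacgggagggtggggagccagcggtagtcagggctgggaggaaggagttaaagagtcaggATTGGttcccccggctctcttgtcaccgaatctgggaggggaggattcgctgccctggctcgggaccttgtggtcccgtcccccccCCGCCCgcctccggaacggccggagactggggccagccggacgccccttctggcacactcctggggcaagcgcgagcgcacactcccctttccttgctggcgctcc
The Npr3 window held 1 STAT motif at -222 to -214 from the start, which 8.87% of 33469 rat promoter windows of this length also hold. The Npr1 window held a CCAAT box at -142 to -138 and a GC box at -56 to -51, both on the opposite strand, and these occur in 37.5% and 33.1% of all windows. The GC content of the windows was 51.3% for Npr3 and 68.7% for Npr1, beside a median of 51.7% over all windows. A match is a description of letters and not evidence of a bound site.

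Gucy1b1, the haem-binding subunit of the soluble guanylate cyclase and so the part that meets nitric oxide, had 2 probe sets that gave nearly the same values. The first (1369097_s_at) read 134 and 243 on IL-1b replicates 1 and 2, against 377 and 336 on vehicle replicates 1 and 2. The second (1374389_at) read 104 and 217 on IL-1b replicates 1 and 2, against 299 and 299 on vehicle replicates 1 and 2. In both, the IL-1b arrays lay below the vehicle arrays, and IL-1b replicate 1 lay well below IL-1b replicate 2. The log2 fold changes were -0.95 ± 0.30 and -0.97 ± 0.35 (SE), with 95% intervals of -1.66 to -0.25 and -1.79 to -0.14, and neither passed (adjusted p = 0.086 and 0.13). Without IL-1b replicate 1 they were -0.54 and -0.45, of which the first passed (adjusted p = 0.022), and without IL-1b replicate 2 they were -1.37 and -1.48, which both passed (adjusted p = 3.9e-07 and 8.0e-07). With an array left out, the fit takes the spread of the other group for the remaining sample, and with IL-1b replicate 1 or 2 left out that is the spread of the vehicle arrays, which lay close together. The Gucy1b1 probe sets share transcripts of 1 gene and are not independent evidence.

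Gucy1a1, the alpha subunit that pairs with Gucy1b1, was too dim to be tested at either of its 2 probe sets. One (1368154_at) read 11.2 and 6.92 with IL-1b, against 17.1 and 7.87 with vehicle, below background on all 4 arrays. The other (1387079_at) read 43.8 and 35.5 with IL-1b, against 12.8 and 24.3 with vehicle, above background on 1 of 2 arrays in each group. The probe sets thus disagreed, with overlapping groups at the first and higher IL-1b values at the second. With no filter on dim probe sets neither passed (limma adjusted p = 0.90 and 0.61). These values do not show whether the cyclase subunits changed together. In the RefSeq annotation Gucy1a1 and Gucy1b1 are neighbours, with 0 protein-coding genes between them. The Gucy1b1 window, at chr2:169696938-169697237 on the minus strand of GRCr8, is shown because its gene was the one cyclase subunit with measurable values.
Gucy1b1: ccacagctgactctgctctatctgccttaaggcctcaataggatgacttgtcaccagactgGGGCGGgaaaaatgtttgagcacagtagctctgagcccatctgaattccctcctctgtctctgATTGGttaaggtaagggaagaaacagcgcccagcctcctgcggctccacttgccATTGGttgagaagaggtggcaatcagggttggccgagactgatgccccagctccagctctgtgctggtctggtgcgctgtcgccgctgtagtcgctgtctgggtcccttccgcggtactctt
It held a GC box at -189 to -184 and 2 CCAAT boxes on the opposite strand, at -126 to -122 and -72 to -68. The Gucy1a1 window, not printed, also held 1 GC box and 1 CCAAT box, which overlap each other.

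Irag1 encodes the protein that links G kinase to the inositol trisphosphate receptor, where the kinase holds back calcium release. Its probe set (1383914_at) read 528 and 453 on IL-1b replicates 1 and 2, against 1514 and 1603 on vehicle replicates 1 and 2. The arrays of each group agreed closely and the groups lay far apart. The mean was 490.4 ± 53.1 with IL-1b and 1559 ± 62.7 with vehicle (SD, n = 2 each). The log2 fold change was -1.66 ± 0.15 (SE), a level 3.16 times lower with IL-1b, with a 95% interval of -2.02 to -1.30 and an adjusted p of 6.6e-04. Leaving out IL-1b replicate 1 or 2 gave -1.77 and -1.55. Over 13 alternatives the log2 fold change was between -1.87 and -1.55 and passed in all 13, with adjusted p up to 0.030. Irag1 ranked 328 from the lowest of 10000 genes.

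Itpr1, the inositol trisphosphate receptor that Irag1 binds, read 229 and 270 with IL-1b, against 1177 and 1249 with vehicle. It fell by 2.26 ± 0.16 (log2, SE, limma adjusted p = 2.6e-04). Both genes of this complex that were measured thus fell, and the probe sets were above background on all 4 arrays. RefSeq gives Irag1 a pair of start sites, and both windows, on the minus strand of GRCr8 at chr1:174528802-174529101 and chr1:174495054-174495353, are shown because the probe set does not tell which start is in use.
Irag1, upstream start: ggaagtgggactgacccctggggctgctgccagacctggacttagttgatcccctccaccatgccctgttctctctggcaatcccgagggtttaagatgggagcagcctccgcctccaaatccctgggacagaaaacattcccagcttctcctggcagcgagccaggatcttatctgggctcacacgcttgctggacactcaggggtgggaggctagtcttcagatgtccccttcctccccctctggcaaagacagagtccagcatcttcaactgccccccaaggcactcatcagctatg
Irag1, downstream start: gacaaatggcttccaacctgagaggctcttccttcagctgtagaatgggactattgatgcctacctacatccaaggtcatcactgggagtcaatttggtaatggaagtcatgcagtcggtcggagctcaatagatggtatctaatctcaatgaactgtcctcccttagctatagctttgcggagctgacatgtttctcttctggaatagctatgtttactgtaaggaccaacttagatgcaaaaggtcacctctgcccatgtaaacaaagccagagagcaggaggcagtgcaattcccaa
Neither window held any of the 8 motifs, and so they carry no capitals. In the same way no member's window held the TATA box (14.2% of all windows), the AP-1 motif (7.33%), the C/EBP motif (10.6%), the CArG box (1.64%) or the NF-kB motif (4.18%). The absence of these letters from so short a window says nothing about the factors.

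Prkg2, the membrane-bound G kinase, best known from intestine and growth plate, was too dim to be tested. Its probe set (1369090_at) read 101 and 11.7 on IL-1b replicates 1 and 2, against 2.54 and 4.39 on vehicle replicates 1 and 2. It was above background only on IL-1b replicate 1, the array with high hybridisation controls. IL-1b replicate 2 was below background, like both vehicle arrays, so no bound on a difference between the groups can be given. With no filter on dim probe sets Prkg2 did not pass (limma adjusted p = 0.25).

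The patterns most like those of the genes that passed were sought among 9932 named genes, by the root mean square difference between log2 values centred on their mean over the 4 arrays. For Npr3 the nearest were Mylk, which encodes myosin light chain kinase, at 0.22, Crispld2, a secreted protein, at 0.35, and Map2, a microtubule protein, at 0.44. Mylk read 32.3 and 215 on IL-1b replicates 1 and 2, against 2487 and 2593 on vehicle replicates 1 and 2. Like Npr3, Mylk and Crispld2 were below background on IL-1b replicate 1, and Map2 was on both IL-1b arrays, so the IL-1b part of these patterns is not well measured. The other Mylk probe set read 80.6 and 51.7 with IL-1b, against 150.3 and 144 with vehicle. It had a log2 fold change of -1.12 and did not pass (limma adjusted p = 0.097), so the likeness belongs to 1 probe set of Mylk. For Irag1 the nearest were Cd59b, which encodes an inhibitor of complement, at 0.02, Prelp, a leucine-rich proteoglycan, at 0.03, and Lingo1, a membrane protein, at 0.05, of which Prelp was below background on IL-1b replicate 1. Cd59b read 823 and 708 with IL-1b, against 2289 and 2444 with vehicle (log2 fold change -1.62, limma adjusted p = 6.6e-04). With 4 arrays many genes share a pattern, and the distances are a description.

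**Figure D3:**
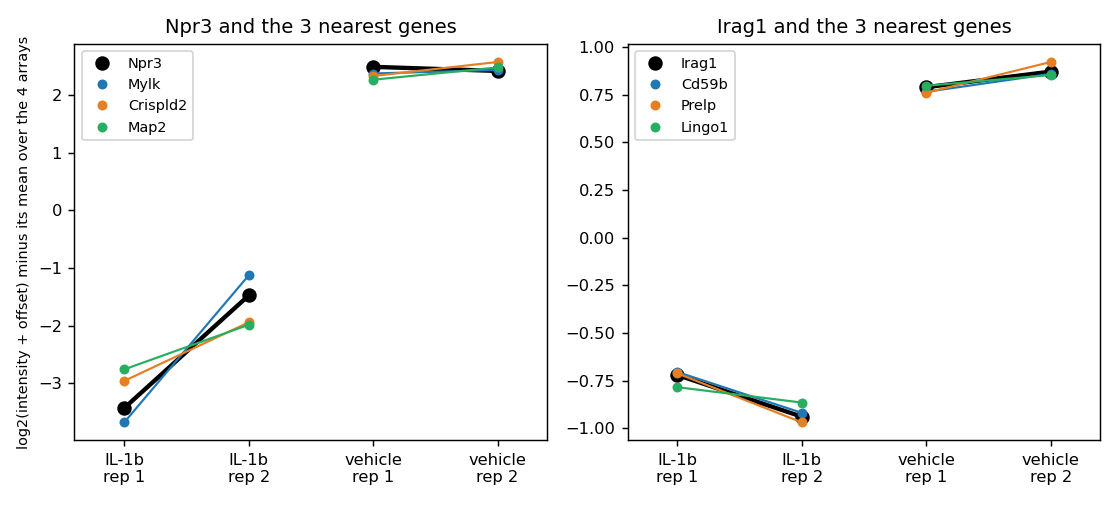
Log2 intensity, with the offset added and centred on the mean over the 4 arrays, of Npr3 (left) and Irag1 (right) in black and of the 3 genes nearest to each in colour, on the 2 IL-1b arrays and the 2 vehicle arrays. The root mean square differences are 0.22 to 0.44 for Npr3 and 0.02 to 0.05 for Irag1.

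The rest of the pathway was read from 4 lists of 59 genes, of which 53 had a probe set with 1 symbol and 29 were bright enough to be tested. Of these 29, 6 passed as lower, 2 as higher and 21 did not pass. Over all 10000 genes tested, 8.13% passed as lower and 7.19% as higher, 15.3% in all.

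Among natriuretic peptides and the proteases that process or degrade them, 3 of 9 genes were tested, and 1 rose. Furin, a protease that cleaves hormone precursors, read 754 and 774 with IL-1b, against 459 and 538 with vehicle (log2 fold change 0.62 ± 0.16, SE, limma adjusted p = 0.046). Its call was lost in 5 of 13 alternatives, among them those without vehicle replicate 1 or 2 (adjusted p = 0.51 and 0.22). Nppb, the B-type natriuretic peptide that activates Npr1, read 178 and 108 with IL-1b, against 35.7 and 0.866 with vehicle. Its groups did not overlap, but vehicle replicate 2 was below background, Nppb was bright enough to be tested only through its IL-1b arrays, and it missed the threshold (log2 fold change 3.16 ± 0.95, SE, adjusted p = 0.076). Without vehicle replicate 2, on arrays above background, the log2 fold change was 1.81 (adjusted p = 0.15). Without vehicle replicate 1 the 1 vehicle value left is below background and gives no measured fold. Nppc, the C-type peptide that activates Npr2, was too dim to be tested. It read 10.6 and 9.07 with IL-1b, below background on both arrays, against 67.6 and 32.6 with vehicle. Taken over both arrays, the bound is at least 1.39-fold lower with IL-1b. This bound rests on IL-1b replicate 2. Background on IL-1b replicate 1 (60.8) was above the vehicle mean of 50.1, so that array alone gives no bound.

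In the list of other guanylate cyclases, nitric oxide synthases and cyclase partners, 2 of 13 genes were tested and 1 fell. Cyb5r3, a reductase that keeps the haem of the soluble cyclase in the form that nitric oxide can bind, read 2025 and 1907 with IL-1b, against 3371 and 3432 with vehicle (log2 fold change -0.79 ± 0.14, SE, limma adjusted p = 0.012). The groups lay well apart, but the call was lost without vehicle replicate 1 or 2 (adjusted p = 0.19 and 0.22). Nos2, the inducible nitric oxide synthase, was too dim to be tested at its probe set with 1 symbol. It read 8.64 and 31.9 with IL-1b, against 25.4 and 8.28 with vehicle, and the groups overlapped.

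Among genes of cGMP breakdown and export, 10 of 18 were tested and 2 fell, with a median log2 fold change of -0.32, beside -0.01 over all genes tested. Pde3b, a phosphodiesterase that cGMP inhibits, read 121 and 184 with IL-1b, against 595 and 662 with vehicle, and fell by 2.03 ± 0.24 (log2, SE, limma adjusted p = 0.0022). It passed in all 13 alternatives. Pde10a fell by 0.66 ± 0.16 at its brightest probe set (adjusted p = 0.035), a call lost in 5 of 13 alternatives. These were quantile normalization, median centring and no intensity trend (limma adjusted p = 0.067, 0.22 and 0.15), and the fits without vehicle replicate 1 or 2. The other Pde10a probe set, whose log2 value differed by -0.41, missed the threshold (adjusted p = 0.23). Pde5a, the cGMP-specific phosphodiesterase that sildenafil blocks, read 89.5 and 71.5 with IL-1b, against 133 and 135 with vehicle. Its groups did not overlap, but it missed the threshold, with a log2 fold change of -0.70, a 95% interval of -1.48 to 0.07 and an adjusted p of 0.22. The phosphodiesterase Pde9a, picked with its values in view, went the other way. Its mean log2 value of 5.36 was just under the filter at 5.37, so it was not tested. Pde9a read 169 and 131 with IL-1b, against 5.77 and 5.04 with vehicle. It was below background on both vehicle arrays, which is at least 6.18-fold higher with IL-1b.

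The list of G kinase substrates and effectors had 14 of 19 genes tested, of which 3 fell, 1 rose and 10 did not pass, with a median log2 fold change of -0.39. Beside Itpr1, the small heat shock protein Hspb6, phosphorylated by the kinase during relaxation, read 66.1 and 104 with IL-1b, against 426 and 389 with vehicle, and fell by 2.22 ± 0.28 (log2, SE, limma adjusted p = 0.0029). The Hspb6 value on IL-1b replicate 1 was only slightly above background (60.8), and without that array the log2 fold change was -1.91. Ppp1r12a, the targeting subunit of myosin phosphatase, read 442 and 908 with IL-1b, against 1902 and 1930 with vehicle, and fell by 1.59 ± 0.31 (adjusted p = 0.017). All 4 of its probe sets had lower values with IL-1b and 3 passed. Rgs2, which shortens signals of constrictor receptors and which G kinase activates, went the other way. It read 562 and 906 with IL-1b, against 151 and 182 with vehicle, and rose by 2.07 ± 0.26 (adjusted p = 0.0029), and its other probe set rose by 2.15 (adjusted p = 0.0035). Without the intensity trend of the variance Ppp1r12a did not pass (adjusted p = 0.12). The potassium channel subunits Kcnma1 and Kcnmb1, picked with their values in view, both missed the threshold (adjusted p = 0.25 and 0.11). At its tested probe set Kcnma1 was below background on both IL-1b arrays, at 53.6 and 8.88, against 95.3 and 71.8 with vehicle. This is at least 2.44-fold lower with IL-1b, for that probe set alone. Its other probe sets were too dim to be tested and had overlapping groups. They read 10.1 and 12.8 with IL-1b against 7.62 and 25.2 with vehicle, and 10.1 and 2.35 against 7.67 and 12.3. Kcnmb1 had a log2 fold change of -1.26 and was above background on all 4 arrays. On IL-1b replicate 1 it was barely so, at 60.9 against a background of 60.8. Without that array the log2 fold change was -1.56.

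**Figure D4:**
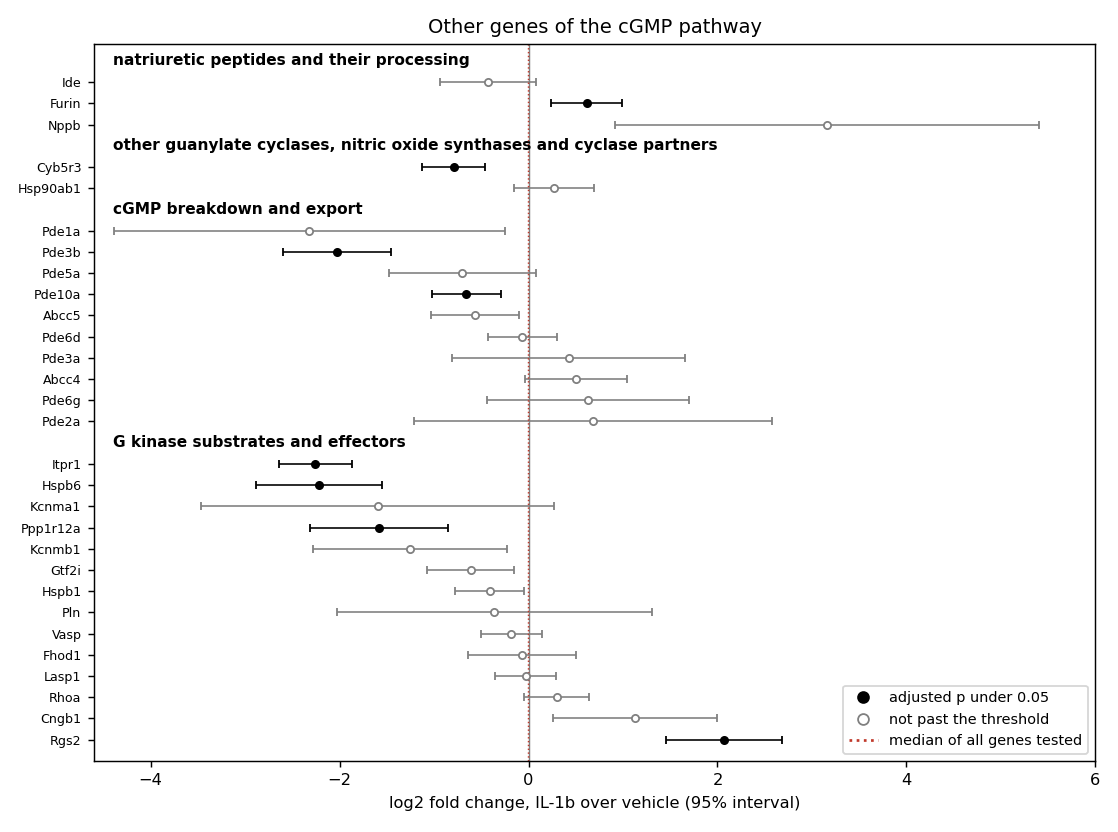
Log2 fold change of IL-1b over vehicle with 95% interval for the 29 tested genes of the 4 pathway lists, each at its brightest probe set. Filled points passed an adjusted p of 0.05, and the dotted line is the median of all genes tested, -0.01. Itpr1, Hspb6, Pde3b and Ppp1r12a lie furthest below 0 among those that passed, and Rgs2 at 2.07 furthest above. Kcnma1 was below background on both IL-1b arrays, so its point is no measured fold. The lowest point, Pde1a at -2.32, and the highest, Nppb at 3.16, did not pass. Each rests in part on a value below background, Pde1a on IL-1b replicate 1 and Nppb on vehicle replicate 2. Pde2a and Pln also had a value below background.

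The cell type was checked against marker lists. All 8 smooth muscle markers were above background on all 4 arrays, and 7 of 8 fell with IL-1b, with Des as the exception (limma adjusted p = 0.80). The summed intensity of the list was 11731 and 8746 on IL-1b replicates 1 and 2, against 31702 and 32279 on vehicle replicates 1 and 2. Myocd, the coactivator of smooth muscle genes, fell by 3.69, and Cnn1, calponin, fell by 2.90 (log2, adjusted p = 1.8e-04 and 2.1e-04). The smooth muscle list thus fell beside Npr3 and Irag1, and its part in their difference was not tested. Of 6 fibroblast markers, 2 rose, Dpt by 3.34, with vehicle replicate 1 below background, and Pdgfra by 1.80 (adjusted p = 0.0018 and 0.031). Lum and Pi16 did not pass (limma adjusted p = 0.078 and 0.47), and Dcn and Tcf21 were too dim to be tested, with overlapping groups. The sum of the fibroblast list was 1289 and 1813 with IL-1b, against 642 and 668 with vehicle. Lum made the largest part of it, at 658 and 1234 with IL-1b, against 449 and 488 with vehicle. None of 7 endothelial markers with a probe set was above background on all 4 arrays, and 5 were below it throughout, Pecam1 and Vwf among them, with sums of 207 and 103 with IL-1b, against 68.4 and 118 with vehicle. Of 7 leukocyte markers with a probe set 1 was above background on all 4 arrays (Cd14), with sums of 1058 and 1077 with IL-1b, against 767 and 666 with vehicle. Of 3 markers of adipocytes and nerve sheath with a probe set 0 were, with sums of 163 and 13.8 with IL-1b, against 67.5 and 41.8 with vehicle. The part of these cell types in the results was not tested.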

How the data were processed

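Each of the 4 samples was hybridised to its own Affymetrix rat array, per the labels. The authors deposited MAS5 intensities, per the submitters' processing notes, whose version and settings the sources used here do not give. Trimmed by 2% at each end, every array had a mean of 250.1, so the values were used as they were. This common scale does not equalise background, and no detection calls come with the table.

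Before log2, every value was raised by 5.49, their 10th percentile over the table, which makes changes of dim genes smaller than with no offset. Values below background were taken as read, so a change that rests on them may still be overstated. Without the 57 controls, probe sets with a mean log2 value at or above 5.37 (the 40th percentile) were tested with limma 3.58.1 in R 4.3.3 (lmFit, then eBayes with an intensity trend) on all 4 arrays. There were 2 residual degrees of freedom and 4.91 prior ones, and p-values were adjusted by Benjamini-Hochberg over all 18625 probe sets. Every adjusted p is from limma. The number of arrays limits the precision, and an exact permutation test of 2 against 2 samples cannot go below a two-sided p of 0.333. Background was the 95th percentile of the control probe sets for Bacillus transcripts that lay below the median on every array. Where a gene was below it on both arrays of a group, the fold is a bound, the brighter group's geometric mean against the higher of background and value.

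In the platform annotation 20826 probe sets had 1 symbol, 436 several and 9780 none listed, and 0 symbols differed from current RefSeq names. Named were all members, up to 4 genes past the threshold with the largest change in each pathway list, Nos2, Nppc and Pde5a, and the 3 nearest patterns of each member that passed. Nppb, Pde1a, Pde2a, Pde9a, Pln, Kcnma1, Kcnmb1, Gucy2g and Nppa were named after their values were seen. The members and lists were chosen with earlier results of these data known. No list was tested as a set. The fit was tested on simulated data.

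Other settings tried were the offset (none, 25th percentile), the scaling (quantile, median), the filter (none, 60th percentile), the variance prior (no trend, robust), the replicate number as block, 1 array left out in turn, stricter thresholds, and the probe set with the lowest p for a gene. Arrays with equal replicate numbers correlated at 0.09 over probe sets in their deviations from the group means, and no label ties them together, so the samples were not treated as paired.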

Additional observations from a re-analysis of the deposited data

How the results depend on the processing

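With values below background taken as read, Npr3, Irag1, Itpr1, Hspb6, Pde3b and Rgs2 kept their direction and passed in all 13 alternative fits. Member probe sets lower numbered 2, and 5 with the replicate block (Npr1 and both Gucy1b1 probe sets added), 2 to 5 with 1 array left out, and 2 or 3 in the other fits, and 0 were higher in any fit. For Npr2 the log2 fold change of 0.01 was -0.20 with median centring, and -0.11 and 0.12 without vehicle replicates 1 and 2 and -0.02 without IL-1b replicate 1, none past the threshold. The 2503 probe sets past the threshold numbered 1634 with median centring, 963 without the intensity trend, 1222 at an adjusted p under 0.01 and 1426 to 8794 with 1 array left out.

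In the peptide list the 1 gene higher became 2 with the 25th percentile offset or the replicate block, and 0 without the intensity trend, with a robust prior, at an adjusted p under 0.01 or at 2-fold, and 0 to 1 with an array left out, when 0 to 1 were lower. In the cyclase partner list the 1 gene lower became 0 without the trend, at an adjusted p under 0.01 or at 2-fold, and 0 to 1 with an array left out, when 0 to 1 were higher. For cGMP breakdown and export the 2 genes lower became 1 with quantile normalization, median centring, no trend, an adjusted p under 0.01 or 2-fold, and 1 to 4 with an array left out; the 0 genes higher became 1 with the 25th percentile offset, quantile normalization or no filter, and 1 with any array left out. Of the G kinase substrates 3 to 7 were lower and 1 to 3 higher with an array left out. Apart from these fits, the cause of the changes was not tested. With 2 arrays a group and no detection calls, for the dim genes Nppc and Pde9a a bound alone can be given. For Nppc it rests on IL-1b replicate 2, and for Gucy1a1, Prkg2 and Nos2 no call can be given.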

Other observations

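The membrane guanylate cyclase Gucy2g, named after its values were seen, was like Prkg2 above background on 1 array. Its 2 probe sets read 88.5 and 67.5 on IL-1b replicate 1 and 3.48 and 14.5 on IL-1b replicate 2, against 5.45 and 3.91 on vehicle replicate 1 and 2.60 and 11.5 on vehicle replicate 2. Both were above background only on IL-1b replicate 1. Over all 31042 probe sets that are not controls, 2.06% were above background only on IL-1b replicate 1 and 3.94% only on IL-1b replicate 2, against 2.39% only on vehicle replicate 1 and 3.41% only on vehicle replicate 2. Of the 24 pathway genes with a probe set that were too dim to be tested, 6 were below background on all 4 arrays. The atrial peptide Nppa was among the dim genes, at 14.2 and 23.2 with IL-1b, against 6.97 and 6.80 with vehicle.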
